A study of Homo sapiens with 16 samples.

Results

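TAFA5 and its relatives TAFA1, TAFA2, TAFA3 and TAFA4 were followed through H3K9me2 ChIP-seq of human fibroblasts that were proliferating or serum-starved. The members are all 29 transcript start windows whose symbol is one of these 5 genes, of 272902 windows in the start table, together with the 36 peak regions that lie within 100 kb of one of the starts, of 16092 regions in all. TAFA1 has 3 windows, TAFA2 has 16, TAFA3 has 2, TAFA4 has 3 and TAFA5 has 5, and each alternative start was kept apart. The gene was chosen on its lower ChIP signal in low serum in wild-type cells, so every wild-type serum value below is a description without a test.

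The cells were BJ-5ta, an established human fibroblast line immortalized with telomerase, as wild type or as ΔLEO1, a single clone in which the start of LEO1 had been removed with CRISPR/Cas9. LEO1 is a subunit of the PAF1 complex, which travels with RNA polymerase II. Each genotype was grown in 10% serum or held in 0.1% serum for 10 days to induce quiescence, and each of these 4 groups had ChIP and input libraries A and B. No other treatment or allele is given for any group. The labels name the antibody only as H3, whereas the study's design names H3K9me2. The input is the same kind of chromatin sequenced without antibody. The labels do not say whether A and B were separate cultures, so p-values measure the spread between these libraries, which may be technical.

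Of the 8 ChIP libraries, 7 held 2153836 to 3696942 reads over start windows. ΔLEO1 10% serum replicate A held 54 reads in all and 0 at the members, and it was left out, so that ΔLEO1 in 10% serum rests on 1 library. The 8 inputs held 3267811 to 9238282 reads. At the 3 LEO1 windows the inputs gave 2.82 to 5.01 CPM in ΔLEO1 and 3.47 to 5.74 CPM in wild type, where CPM stands for reads scaled to a common library size with TMM factors. These windows do not check the genotype, since the ends of the deleted stretch are not given here.

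The TAFA genes, formerly FAM19A, encode small secreted proteins that resemble chemokines and are known mainly from the nervous system. They act on neurons and other cells through cell-surface receptors. H3K9me2, dimethylation of lysine 9 on histone H3, is laid down in broad domains over genes that are kept silent, among them many tissue-restricted genes. No expression was measured in these libraries.

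TAFA5 lies on the plus strand of chromosome 22 (hg38). Its 5 windows of 2000 bp form 3 places. ENST00000402357 and ENST00000336769 start at 48489553 and 48489592, and their windows share most of their reads. ENST00000358295 and ENST00000473898 start further downstream, at 48576306 and 48576453, and also overlap. ENST00000406880 starts at 48693247 and overlaps no other member window. The first and second places have a promoter in RefSeq (GRCh38.p14), and both are shown with every CG dinucleotide in capitals, because these places behaved differently and the input reads are set beside base composition further on. The TAFA1 promoter is shown beside them, as the start with the only genotype difference that passed the test.
TAFA5 first start, chr22:48489303-48489602, plus strand: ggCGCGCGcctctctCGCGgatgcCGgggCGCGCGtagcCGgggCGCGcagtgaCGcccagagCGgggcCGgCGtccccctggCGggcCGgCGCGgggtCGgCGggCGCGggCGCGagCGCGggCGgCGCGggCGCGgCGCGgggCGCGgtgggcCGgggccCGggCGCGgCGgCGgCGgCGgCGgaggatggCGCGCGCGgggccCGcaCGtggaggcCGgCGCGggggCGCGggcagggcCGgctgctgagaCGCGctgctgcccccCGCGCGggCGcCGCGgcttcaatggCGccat
TAFA5 second start, chr22:48576090-48576389, plus strand: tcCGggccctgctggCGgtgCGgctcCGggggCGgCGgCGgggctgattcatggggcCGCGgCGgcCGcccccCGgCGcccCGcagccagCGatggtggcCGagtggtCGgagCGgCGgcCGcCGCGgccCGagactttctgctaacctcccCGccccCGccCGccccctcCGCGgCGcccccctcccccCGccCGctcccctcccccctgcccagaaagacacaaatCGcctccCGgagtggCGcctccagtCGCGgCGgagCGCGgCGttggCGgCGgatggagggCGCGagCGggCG
TAFA1, chr3:68003997-68004296, plus strand: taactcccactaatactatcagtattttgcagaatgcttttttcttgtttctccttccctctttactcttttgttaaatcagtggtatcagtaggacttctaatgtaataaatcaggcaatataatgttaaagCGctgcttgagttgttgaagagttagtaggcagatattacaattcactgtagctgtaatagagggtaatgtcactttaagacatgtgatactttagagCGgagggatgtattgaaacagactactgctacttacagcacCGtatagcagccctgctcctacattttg

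Each sequence runs 5′ to 3′ over 300 bases, from 250 before to 50 after the RefSeq start. The first TAFA5 promoter is 87.7% G and C and holds 67 CG dinucleotides, a number reached by 0.0114% of 35116 RefSeq promoters of this length. The second is 80.7% G and C with 46 CG, reached by 2.89% of them, and its RefSeq start lies 34 bp from that of ENST00000358295. The TAFA1 promoter is 37.3% G and C with 3 CG, and 81.8% of promoters hold at least as many. RefSeq promoters matched all 5 genes. TAFA2 had 7 CG, TAFA3 18 and TAFA4 37.

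At ENST00000358295 (chromosome 22, 48575306 to 48577306), the TAFA5 window with the strongest wild-type serum difference, wild-type ChIP gave 32 and 35 reads in 10% serum (12.2 and 11.3 CPM) and 6 and 5 reads in 0.1% serum (1.81 and 1.84 CPM). The 2 sera did not overlap, and the means were 11.8 ± 0.656 and 1.83 ± 0.0184 CPM (SD, n = 2). The log2 fold change of -2.30 ± 0.34 (SE) was the lowest of all 159524 windows tested in wild type. The overlapping ENST00000473898 gave 28 and 40 reads in 10% serum against 9 and 6 in 0.1% serum, means of 11.8 ± 1.56 and 2.46 ± 0.362 CPM, and its log2 fold change was -1.98 ± 0.33. Both are among the windows called in wild type, where 0.27% of windows were called, and nothing is read from that because the gene was chosen on it.

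The other TAFA5 places had the same direction in wild type with smaller differences. At the first place, 29 to 41 reads in 10% serum stood against 20 to 26 in 0.1% serum. The log2 fold changes there were -0.59 ± 0.26 at ENST00000402357 and -0.65 ± 0.26 at ENST00000336769. ENST00000406880 had 32 and 40 reads in 10% serum and 25 and 23 in 0.1% serum, a log2 fold change of -0.62 ± 0.25. Of all windows, 6.60%, 4.64% and 5.63% had a value at or below these 3. The second place had the lowest wild-type values of the gene. Nothing is read from that, because the gene and the window described first were chosen on these same values.

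ΔLEO1 cells supply libraries that had no part in the choice. At ENST00000358295 the 10% serum library held 7 reads, 3.28 CPM with an exact Poisson 95% interval of 1.32 to 6.75, which covers counting error only. The 2 libraries in 0.1% serum held 4 and 3 reads, 1.13 ± 0.0845 CPM (SD, n = 2). The ΔLEO1 signal was thus already low in 10% serum, and the serum difference of -1.13 ± 0.58 (SE) on the log2 scale did not pass the test (edgeR adjusted p = 0.545). At ENST00000473898 there were 7 reads in 10% serum and 5 and 6 in 0.1% serum, a log2 fold change of -0.70 ± 0.56 (edgeR adjusted p = 0.749). Single-digit counts in every ΔLEO1 library limit what can be seen here. With the ΔLEO1 libraries alone, both windows were under the filter on low counts. They were thus tested only through the wild-type libraries, with which the estimate of the spread was also shared.

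At the first and last places ΔLEO1 had a CPM like that of wild type in 10% serum and a lower one in 0.1% serum. ENST00000402357 had 28 reads in 10% serum, and 24 and 13 in 0.1% serum, or 13.1 CPM against 5.77 ± 0.890 CPM (SD, n = 2). ENST00000336769 had 28 reads, then 21 and 15. ENST00000406880 had 31 reads, 14.5 CPM, against 25 and 17 reads, 6.69 ± 0.0391 CPM. The log2 fold changes were -1.07 ± 0.35, -1.10 ± 0.35 and -1.04 ± 0.34, with edgeR adjusted p-values of 0.276, 0.266 and 0.267. These 3 windows were the ones with an unadjusted p under 0.05 among the 19 member windows tested, and none of the 19 passed after adjustment with edgeR or with DESeq2, which also put 3 under the unadjusted 0.05. Over all windows 0.0633% were called in this comparison.

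**Figure D1:**
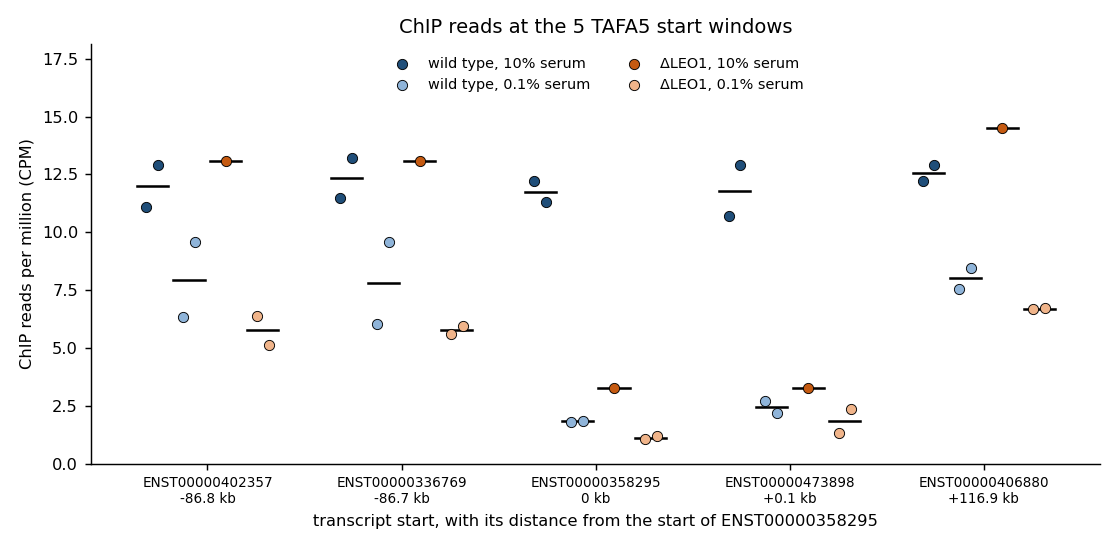
Scaled ChIP reads (CPM, y axis) at the 5 TAFA5 start windows (x axis, with the distance of each start from ENST00000358295), one point per library and a bar at the group mean. At ENST00000358295 and ENST00000473898 the wild-type 10% libraries sit above 10 CPM and every other library, ΔLEO1 in 10% serum included, below 3.3 CPM, while at the other 3 windows both genotypes are above 11 CPM in 10% serum and below 9.6 CPM in 0.1% serum.

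In all 5 TAFA5 windows the 4 libraries of 0.1% serum lay below the 3 of 10% serum, an arrangement found at 5.55% of all windows tested. Within wild type alone, both 0.1% libraries were below both 10% libraries at 5 of 5 TAFA5 windows, against 19.6% of all windows. Within ΔLEO1 both were below the single 10% library at 5 of 5, against 36.9% of all windows. The wild-type part of these counts was used in the choice, the 5 windows are 3 separate places, and every ΔLEO1 value is set against the same 10% library. Both windows of the second place passed the filter on low counts only through the wild-type libraries. Their part in the ΔLEO1 count is therefore no separate evidence.

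The same arrangement was looked for in the remaining family members. Of their 24 windows, 14 passed the filter on low counts, 3 of TAFA1, 8 of TAFA2, 0 of TAFA3 and 3 of TAFA4. None of these 14, some of which overlap, had all 4 low-serum libraries below all 3 of 10% serum, beside 5.55% of all windows. That is near the share over all windows, so nothing is read from it. Within wild type 4 of 14 had both 0.1% libraries lower, and within ΔLEO1 2 of 14, beside the 19.6% and 36.9% of all windows. Their median log2 fold change was -0.21 in wild type and 0.17 in ΔLEO1, where the medians over all windows were 0.01 and 0.02 and those of TAFA5 were -0.65 and -1.07. The lowest edgeR adjusted p of the 14 in ΔLEO1 was 0.703. Whether TAFA5 differs from the others was not tested, since the wild-type values of TAFA5 chose it.

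TAFA1, a secreted protein found mainly in the brain, has its highest wild-type signal at ENST00000496687 (chromosome 3, 68005230 to 68007230). This window gave 32 and 34 reads in wild-type 10% serum, 31 and 19 in 0.1% serum, 14 in ΔLEO1 10% serum, and 28 and 19 in ΔLEO1 0.1% serum. Scaled to CPM, both low-serum libraries were lower in wild type (8.18 ± 1.68 against 11.6 ± 0.884, SD, n = 2) and both were higher in ΔLEO1 (7.48 ± 0.0326 against 6.55). The log2 fold changes were -0.45 ± 0.26 in wild type and 0.17 ± 0.40 in ΔLEO1. ENST00000491017, far downstream, was close to 0 in both, at -0.19 and 0.03.

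TAFA2, whose product is also a secreted protein of the nervous system, had its highest wild-type signal at ENST00000550396 (chromosome 12, 62278150 to 62280150). Its CPM were 8.53 ± 0.718 in wild-type 10% serum and 6.61 ± 2.09 in 0.1% serum (SD, n = 2), and in ΔLEO1 9.36 and 8.54 ± 1.90. The CPM of the 2 sera overlapped in both genotypes. ENST00000550003, far from the other starts of the gene, had 20 and 29 reads in wild-type 10% serum and 17 and 14 in 0.1% serum, but in ΔLEO1 6 reads in 10% serum against 20 and 12. Its log2 fold change was -0.67 ± 0.31 in wild type and 0.72 ± 0.52 in ΔLEO1 (edgeR adjusted p = 0.703). Of the 8 tested TAFA2 windows, 6 were higher in 0.1% serum in wild type and 5 in ΔLEO1. The other 8, most of them crowded around 1 group of starts, had at most 12 reads in any ChIP library and were not tested.

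TAFA4, reported to act on pain-sensing neurons and macrophages, gave 20 and 33 reads at ENST00000295569 (chromosome 3, 68931547 to 68933547) in wild-type 10% serum and 29 and 18 in 0.1% serum. ΔLEO1 had 9 reads in 10% serum and 28 and 13 in 0.1% serum. The sera overlapped in wild type, and both low-serum libraries were higher in ΔLEO1, with log2 fold changes of -0.23 ± 0.27 and 0.56 ± 0.46 (edgeR adjusted p = 0.749). ENST00000634242, the other TAFA4 place, had 21 and 21 reads in wild-type 10% serum and 15 and 16 in 0.1% serum, without overlap in CPM. ΔLEO1 had 13 reads there in 10% serum, and 18 and 17 in 0.1% serum. The log2 fold changes were -0.46 ± 0.31 in wild type and -0.11 ± 0.43 in ΔLEO1. The 2 TAFA3 windows averaged 1.19 and 2.66 CPM in wild-type 10% serum, and neither was tested.

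**Figure D2:**
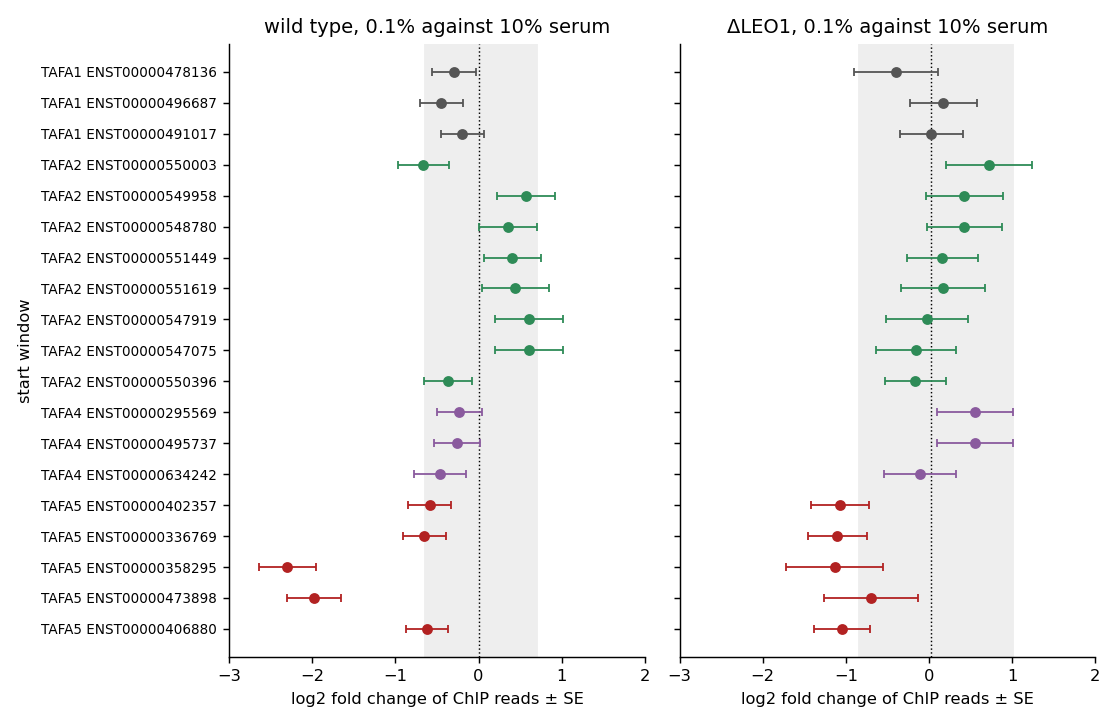
Log2 fold change of ChIP reads in 0.1% against 10% serum (x axis, ± SE) at the 19 member windows tested (y axis, coloured by gene), in wild type (left) and ΔLEO1 (right). The dotted line is the median and the grey band the 5th to 95th percentile of all 159524 windows. The 5 TAFA5 windows lie between -2.30 and -0.59 in wild type and between -1.13 and -0.70 in ΔLEO1, and the 14 others between -0.67 and 0.60 and between -0.40 and 0.72.

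All windows have the same length, so levels are set side by side here, as CPM that are not scaled to input. With 1 window per non-overlapping place, the 14 places of the family ran from 12.6 to 2.51 CPM in wild-type 10% serum. The TAFA5 places came first, at 12.6 ± 0.485, 12.3 ± 1.253 and 11.8 ± 1.56 CPM (SD, n = 2), followed by TAFA1 at 11.6 ± 0.884. These 4 did not differ beyond their spread. ChIP over input at these 4, in the same order, was 4.00, 5.32, 4.24 and 3.57. The wild-type 10% libraries were used in choosing TAFA5, so nothing is read from its rank. Further down, TAFA1 ENST00000491017 stood at 10.0 ± 0.945 CPM, TAFA4 and TAFA2 places stood between 9.14 and 7.40 CPM, and the last 5 places, of TAFA2 and TAFA3, were all below 4.3 CPM. Of the 13 steps between neighbours in this order, 3 were larger than the larger SD of the pair.

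Input reads, which come from chromatin without antibody, were compared in the same way. At ENST00000358295 the wild-type inputs held 15 and 22 reads in 10% serum and 5 and 5 in 0.1% serum, or 2.43 ± 0.0655 against 0.715 ± 0.0161 CPM (SD, n = 2). The groups did not overlap, and the log2 fold change was -1.43 ± 0.41, and 40 of 238006 windows had a value at or below it, with an edgeR adjusted p of 0.136. ENST00000473898 had 18 and 24 input reads against 7 and 6, a log2 fold change of -1.32 ± 0.38 (edgeR adjusted p = 0.146). The window where wild-type ChIP was lower in 0.1% serum was thus also low in wild-type input.

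In ΔLEO1 the inputs at ENST00000358295 held 7 and 10 reads in 10% serum and 6 and 11 in 0.1% serum, 1.69 ± 0.716 against 1.21 ± 0.120 CPM. The groups overlapped, with a log2 fold change of -0.21 ± 0.43 (edgeR adjusted p = 1.0). At the first and last TAFA5 places the input values in the 2 genotypes lay between -0.42 and -0.02. In wild type the 2 sera overlapped at all 3 of these windows. In ΔLEO1 they overlapped at ENST00000336769 and ENST00000406880 but not at ENST00000402357. That window gave 2.27 ± 0.117 CPM in ΔLEO1 10% input against 1.56 ± 0.619 in 0.1% (SD, n = 2), a log2 fold change of -0.42 ± 0.38. None of the 29 member windows was called in either input comparison by edgeR or DESeq2, where 0.0235% of windows were called in wild type and 0.0% in ΔLEO1. With edgeR 3 windows in wild type and 0 in ΔLEO1 had an unadjusted p under 0.05. Besides ENST00000358295 and ENST00000473898 the wild-type one was TAFA4 ENST00000634242, which was higher in 0.1% serum by 0.72 ± 0.26 on the log2 scale (edgeR adjusted p = 0.288).

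**Figure D3:**
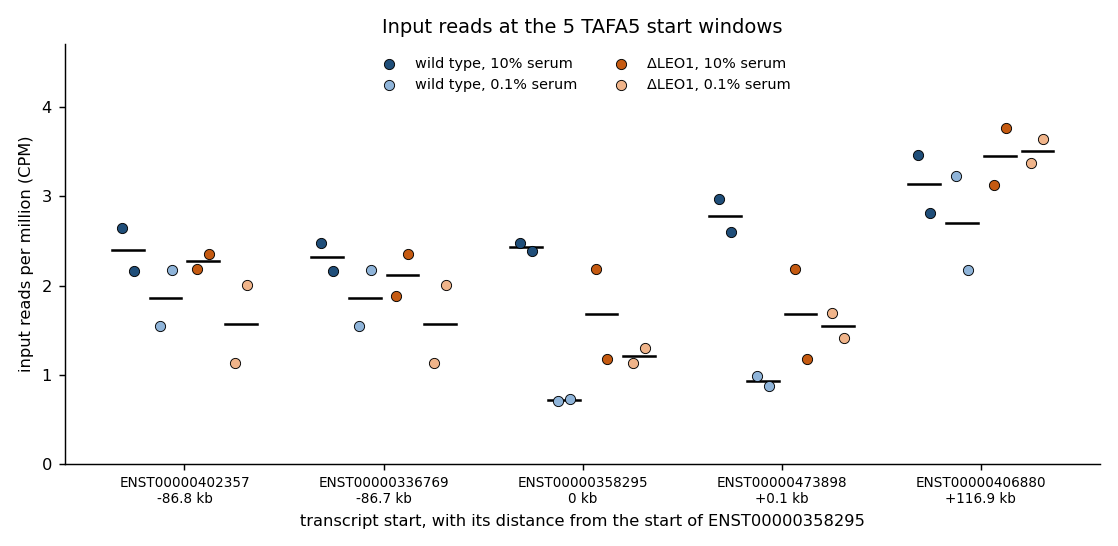
Scaled input reads (CPM, y axis) at the 5 TAFA5 start windows (x axis), one point per library and a bar at the group mean. At ENST00000358295 the wild-type libraries are at 2.48 and 2.38 CPM in 10% serum and at 0.703 and 0.726 CPM in 0.1% serum, and the ΔLEO1 libraries lie between 1.12 and 2.19 CPM.

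Set against input, the wild-type serum difference at ENST00000358295 shrank. ChIP over input was 4.84 in wild-type 10% serum and 2.55 in 0.1% serum, and 1.94 and 0.931 in ΔLEO1, where the median over windows was 1.34, 1.31, 1.27 and 1.37. A fit of ChIP over input gave -1.18 ± 0.91 in wild type and -1.13 ± 0.83 in ΔLEO1 (edgeR adjusted p = 0.799). For the other places the ratio in 10% serum was 4.00 to 5.32 in wild type and 4.204 to 6.19 in ΔLEO1, and in 0.1% serum 2.96 to 4.27 and 1.91 to 3.69. The fit over input was -0.37, -0.48 and -0.53 in wild type and -0.75, -0.83 and -1.10 in ΔLEO1, all with SE between 0.43 and 0.61. A fall over input was not particular to TAFA5. In wild type the other members ran from -1.24 ± 0.42 at TAFA4 ENST00000634242, below ENST00000358295, to 0.82 ± 0.71 at TAFA2 ENST00000548541. In ΔLEO1 they ran from -0.83 ± 0.76 at TAFA2 ENST00000549379 to 1.11 ± 0.57 at TAFA4 ENST00000495737. The 2 TAFA2 windows were under the filter on low counts in the main fit. Among the 5 TAFA5 windows in ΔLEO1, ENST00000406880 alone had an unadjusted p under 0.05, with an edgeR adjusted p of 0.632.

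Promoter base composition moved with the wild-type input. Over windows centred on a RefSeq start, those with a promoter at least as rich in G and C as the second TAFA5 promoter numbered 477 in the inputs, and 93.5% of them were lower in wild-type 0.1% serum, with a median log2 fold change of -0.49. In the fourth of promoters poorest in G and C, 29.0% were lower and the median was 0.16. The same 477 windows had a median of -0.06 in ΔLEO1 inputs, with 56.6% lower. In ChIP, the 153 such windows tested had medians of -0.23 in wild type and -0.10 in ΔLEO1, with 64.1% and 56.2% lower. The TAFA5 values at the second place lie below these medians, and the part of base composition in them was not tested. The first TAFA5 promoter is richer still in G and C, and its wild-type input value was -0.30 ± 0.35.

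**Figure D4:**
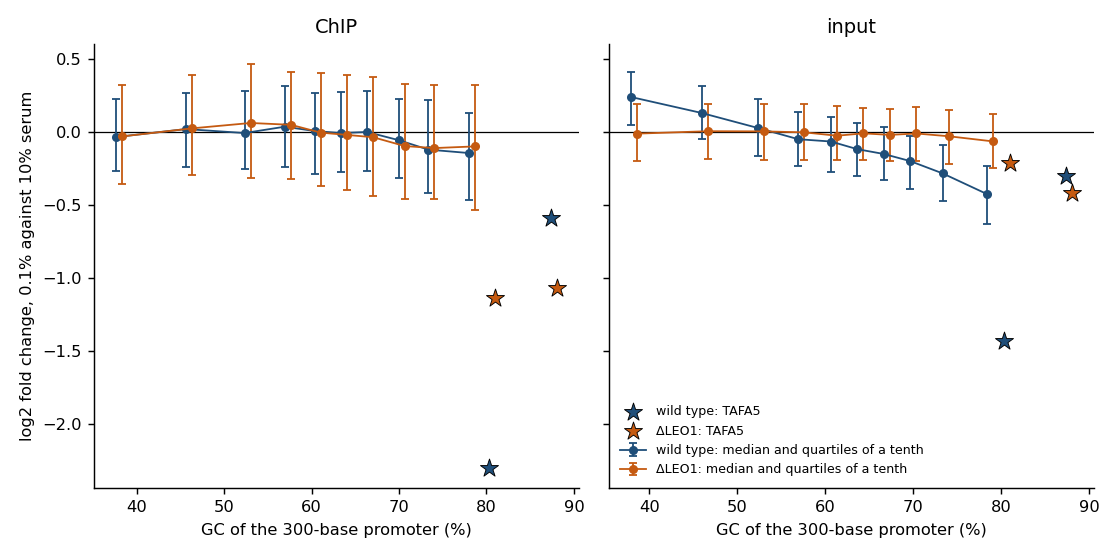
Log2 fold change in 0.1% against 10% serum (y axis) against the share of G and C in the 300-base promoter (x axis), for ChIP (left) and input (right). Points and bars are the median and quartiles of 10 bins of the matched windows, shifted slightly sideways by genotype, and stars are the first and second TAFA5 starts. In wild-type input the bins go from a median of 0.24 at 38.3% to -0.42 at 78.7%, and the second TAFA5 start is at -1.43.

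Between genotypes in 10% serum, the second TAFA5 place is described only. Its values set the wild-type libraries on which it was chosen against 1 ΔLEO1 library, with 7 reads at each window. ΔLEO1 stood at 3.28 CPM where the wild-type libraries stood at 12.2 and 11.3 CPM, which is -1.64 ± 0.44 on the log2 scale at ENST00000358295, and the value at ENST00000473898 was -1.66 ± 0.44. The other 3 TAFA5 windows were at 0.07 to 0.19, and each of them was negative under 1 or 2 of 11 other settings. In 0.1% serum all 5 TAFA5 windows were lower in ΔLEO1, by log2 fold changes of -0.48 to -0.23, although ENST00000406880 turned to 0.05 when the libraries were scaled by their peak totals. These values, and those of TAFA1 below, are relative to the other windows. The study, which scaled to spiked-in fly chromatin, reported H3K9me2 as globally increased in ΔLEO1 in 0.1% serum. Over input the 10% serum values at the second place were smaller, -1.17 ± 0.76 at ENST00000358295 and -1.03 ± 0.78 at ENST00000473898. The other 3 TAFA5 windows lay between -0.03 and 0.11 there. In 0.1% serum the values over input were -1.12 ± 0.699 at ENST00000358295, -0.97 ± 0.64 at ENST00000473898 and -0.60 ± 0.42 at ENST00000406880. At the first place they were -0.27 ± 0.57 at ENST00000402357 and -0.28 ± 0.57 at ENST00000336769. These comparisons share the wild-type libraries on which TAFA5 was chosen, so no p is given for it.

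TAFA1 gave the one member window that was called in a comparison of genotypes. At ENST00000478136 (chromosome 3, 68003247 to 68005247), wild type in 0.1% serum had 26 and 24 reads (7.85 and 8.83 CPM) and ΔLEO1 had 10 and 9 (2.67 and 3.56 CPM). The groups did not overlap, and the window was lower in ΔLEO1 with a log2 fold change of -1.27 ± 0.33 (edgeR adjusted p = 0.0386). Of the 14 tested windows of TAFA1, TAFA2 and TAFA4 it was the single one called, in a comparison where 0.347% of windows were called. The call was lost, with 0 member windows called, when any 1 of the 4 libraries was left out, and under 6 of 9 other settings. The log2 fold change itself stayed between -1.43 and -1.01 under all 13 of these. The edgeR adjusted p over input was 0.563. In 10% serum the same window had 30 and 29 reads in wild type and 9 in ΔLEO1, a log2 fold change of -1.17 ± 0.43 (edgeR adjusted p = 0.372).

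The input at this TAFA1 window gave 3.66 and 3.78 CPM in wild-type 0.1% serum and 3.19 and 2.94 CPM in ΔLEO1. ENST00000496687, whose window overlaps it by only a few bases, had a genotype difference of -0.14 ± 0.28 in 0.1% serum (edgeR adjusted p = 0.903). In 10% serum none of the 14 windows of TAFA1, TAFA2 and TAFA4 was called by edgeR or DESeq2, where 0.0295% of all windows were called. With edgeR 5 of the 14 had an unadjusted p under 0.05, beside 8.39% of all windows. Of these TAFA2 ENST00000550003 had a log2 fold change of -1.40 ± 0.48 in ΔLEO1 against wild type. TAFA4 ENST00000295569 and ENST00000495737 are also among them, overlap and hold the same ChIP reads in 10% serum. All of them are set against the same ΔLEO1 10% library. The genotype differences between the serum responses of TAFA1, TAFA2 and TAFA4 gave a lowest edgeR adjusted p of 0.81, with 1 of 14 windows under an unadjusted 0.05.

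Peak regions lay around the starts and not on them. TAFA5 had 23 of the 36 within reach, TAFA2 8, TAFA1 3, TAFA4 2 and TAFA3 none, at distances of 1478 to 99333 bp from the nearest start. The file annotates 14 of the TAFA5 regions to introns, 8 as intergenic and 1 as a repeat. For the other genes, 8 of 13 are annotated as repeats. Summed over the 23 TAFA5 regions, the ChIP libraries held 548 and 575 reads in wild-type 10% serum, 508 and 428 in wild-type 0.1% serum, 420 in ΔLEO1 10% serum, and 508 and 299 in ΔLEO1 0.1% serum.

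Upstream of the first TAFA5 start lie 5 regions. The one at chr22:48417232-48418235 had log2 fold changes of -0.19 in wild type and -0.60 in ΔLEO1, and chr22:48433818-48434651 had -0.56 and -0.84. The next, chr22:48436205-48436938, was at 0.32 and 0.00478. After it came chr22:48453130-48454068 with -0.06 and -0.54, and chr22:48476488-48477774 with -0.52 and -0.67. Of these, chr22:48433818-48434651 had all 4 low-serum libraries below all 3 of 10% serum.

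Between the first and second TAFA5 starts lie 8 regions. The region chr22:48500915-48501742 was lowest in wild type, at -1.04, but 0.86 in ΔLEO1, where its 10% library held 5 reads. Its neighbours chr22:48507822-48508640 and chr22:48517018-48518238 gave -0.05 and -0.26 in wild type and 0.11 and -0.73 in ΔLEO1. Further on, chr22:48521849-48522925 was at -0.09 and -0.12. The largest ΔLEO1 difference of the 23 was at chr22:48523054-48524742, with 45 reads in 10% serum against 29 and 15 in 0.1% serum, a log2 fold change of -1.29 ± 0.34 (edgeR adjusted p = 0.263), while wild type had 30 and 36 reads against 45 and 29, at 0.21. The remaining 3, chr22:48527615-48529129, chr22:48545632-48546406 and chr22:48569504-48570047, gave 0.38, -0.63 and -0.10 in wild type and -0.11, -0.49 and 0.69 in ΔLEO1. The last of them is the closest to the second start, 6259 bp upstream, and did not share its low wild-type value.

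Downstream of the second start and up to the last there are 5 regions. They are chr22:48591602-48592491 with 0.08 in wild type and -0.81 in ΔLEO1, chr22:48594418-48595503 with -0.95 and -0.36, and chr22:48634894-48635927 with -0.33 and -0.45. The others are chr22:48644470-48645172, at -0.80 and 0.19, and chr22:48675663-48676504, at -0.22 and 0.41. Beyond the last start, chr22:48715244-48715937 gave -0.80 and -0.36 and chr22:48754615-48756077 gave 0.36 and -0.09. The outermost 3, chr22:48757579-48758345, chr22:48772415-48772922 and chr22:48785980-48787001, gave -0.61, 0.58 and 0.13 in wild type and 0.57, -0.21 and -0.10 in ΔLEO1.

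Of the 23 TAFA5 regions, 16 were lower in 0.1% serum in wild type and 16 in ΔLEO1, with medians of -0.19 and -0.21 against -0.01 and 0.01 over all regions. In wild type 9 of 23 had both low-serum libraries below both others, beside 19.5% of all regions, in ΔLEO1 11 of 23 beside 36.4%, and in both together 3 of 23 beside 4.88%. The 13 regions of the other genes had medians of 0.09 and 0.33. None of the 36 was called in ΔLEO1 by edgeR or DESeq2, with 3 under an unadjusted 0.05 in edgeR and 1 in DESeq2, and 0.0% of all regions were called there, as in wild type. Between genotypes in 0.1% serum 0.0621% of regions were called and none of the 36 was, with 1 under an unadjusted 0.05 in edgeR and 0 in DESeq2. That one, chr3:67947822-67948754 next to TAFA1, was at -0.80 (edgeR adjusted p = 0.496), and the TAFA1 region closest to a start, chr3:68007708-68008252, was also at -0.80.

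**Figure D5:**
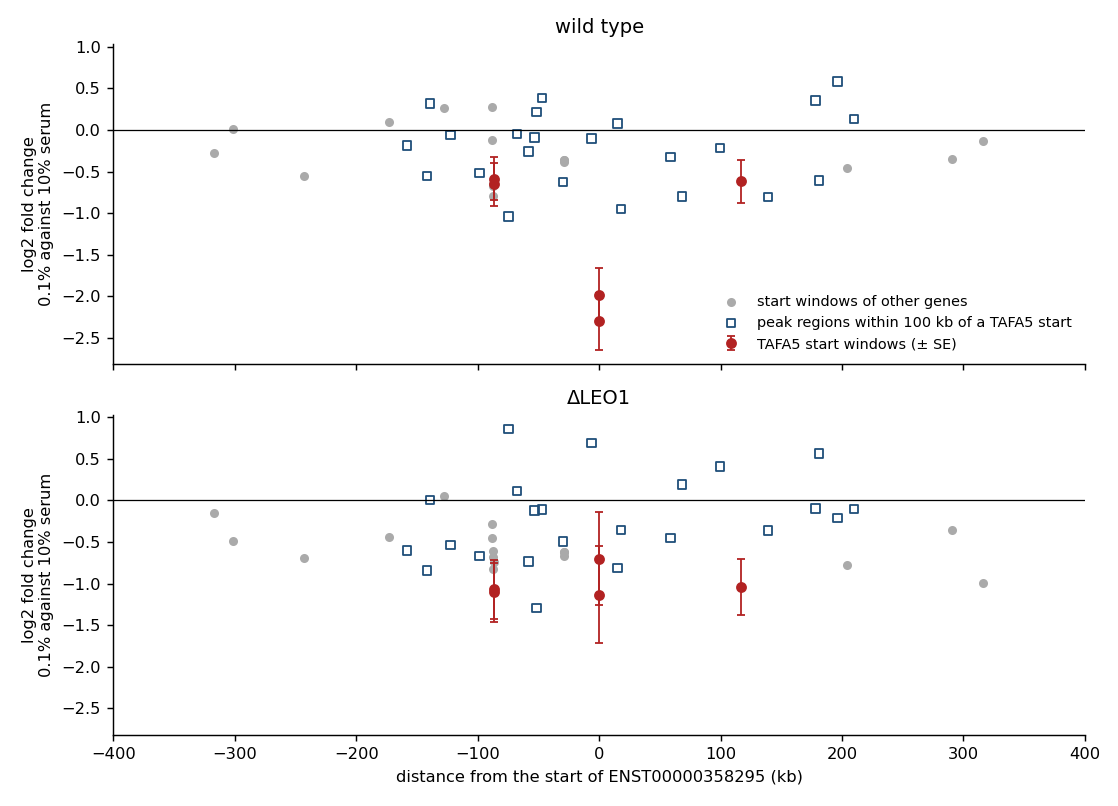
Log2 fold change of ChIP reads in 0.1% against 10% serum (y axis) along the TAFA5 locus, by distance from the start of ENST00000358295 (x axis, kb), in wild type (top) and ΔLEO1 (bottom). Red points with SE bars are TAFA5 start windows, blue squares are peak regions within 100 kb of a TAFA5 start, and grey points are start windows of other genes. In wild type the 2 windows at 0 kb, at -2.30 and -1.98, stand below every other feature shown, and in ΔLEO1 the TAFA5 windows lie among the lowest start windows.

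Windows of other genes within 1 Mb of ENST00000358295 were compared with it. There were 87 from 28 gene identifiers, but 46 of them are windows of 1 long noncoding RNA gene, EPIC1, so they were counted by gene. In wild type 23 of 28 genes had a median below 0 in 0.1% serum, with a median over genes of -0.27. In ΔLEO1 25 of 28 did, with a median over genes of -0.47. Counted by window, 43 of the 87 were lower in wild type, with a median of 0.01, as over all windows. In ΔLEO1 81 of the 87 were lower, with a median of -0.51. The counts by gene and by window thus differed in wild type, and most of the genes had a single window. No share over all genes is given beside these counts, and the ΔLEO1 values are all set against the same 10% library. Of the 87 windows, 6 belong to 1 gene that overlaps the first TAFA5 place and shares its reads, and without that gene the counts were 22 and 24 of 27 and the medians -0.27 and -0.44. None of the 87 windows lay below the second TAFA5 place in wild type, and 4 to 6 lay below each of the other TAFA5 windows. These 4 to 6 include windows of the gene that overlaps the first place. Nothing is read from these wild-type counts, because TAFA5 was chosen on the same values. In ΔLEO1 none lay below ENST00000358295, the first place or the last, and 12 lay below ENST00000473898. The 3 windows of 1 other gene that start between the first and last TAFA5 starts were at -0.39 to -0.37 in wild type and -0.67 to -0.62 in ΔLEO1.

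Over the 7 ChIP libraries, the windows whose log2 CPM followed ENST00000358295 most closely belonged to MARCHF11, which encodes a membrane-bound ubiquitin ligase, SPINT3, which encodes a protease inhibitor, CADM2, which encodes a synaptic adhesion protein, and the noncoding genes LINC01477 and LINC02714. Pearson's r was 0.992, 0.991, 0.988, 0.986 and 0.983. All of these values come from the same libraries and share their depth and scaling, and the best of 159524 windows are bound to be high. Their wild-type serum differences were -0.92, -0.56, -0.61, -0.49 and -0.87, and in ΔLEO1 they were -0.61, -0.28, -0.36, -0.36 and -0.48. That the wild-type ones were all smaller than at ENST00000358295 was set by the choice of gene and window.

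Receptors reported for TAFA proteins were looked at beside the family. FPR1 and FPR2, formyl peptide receptors of immune cells, had 4 and 6 tested windows, and CMKLR2, also known as GPR1, had 8. The median log2 fold change in low serum at FPR1 was -0.24 in wild type and 0.06 in ΔLEO1. At FPR2 it was 0.06 and -0.31, and at CMKLR2 0.34 and 0.65, beside 0.01 and 0.02 over all windows. The receptor genes S1PR2 and LRP1 and the synaptic gene LRRC4B had 0 windows above the filter on low counts.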

How the data were processed

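Chromatin from BJ-5ta fibroblasts, wild type and ΔLEO1, in 10% and 0.1% serum, was sequenced after ChIP and as input. The authors deposited raw read counts per library, whole numbers without scaling, over windows reaching 1 kb to each side of annotated transcript starts and over merged peak regions. The processing notes of the submitters name bcl2fastq 2.20.0.422, STAR 2.7.10a, HOMER, hg38 and dm6, without their roles. The methods of the study describe counting with csaw and scaling to spiked-in fly chromatin, which was not applied to the counts here, so a change shared by all windows would not be seen. The handling of duplicate reads and the libraries used for peak calling are not given in the sources used here.

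Counts were fitted with the quasi-likelihood test of edgeR 4.0.16 (R 4.3.3, limma 3.58.1), two-sided, with 1 coefficient per group, filterByExpr at a minimum count of 10, TMM scaling and a prior count of 2 for log2 fold changes. P-values were adjusted by Benjamini-Hochberg over all windows or regions of a comparison, and an adjusted p under 0.05 was a call. The fit used 7 ChIP libraries, or 8 inputs, and the lone ΔLEO1 10% library was assumed to vary like the others. SE is the log2 fold change divided by the square root of F. ChIP over input was a single fit of 15 libraries. DESeq2 1.42.0 and other settings were alternatives, and the code was tested on simulated data. At 3 to 41 reads per window, counting error alone is large, and intervals cover that error only.

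The genes, a list of receptors and other partners and the way of naming windows were chosen with earlier results of these data known. Every start was accounted for. Reads per library are given for the TAFA5 window with the smallest wild-type p and its overlap, for other members at the window highest in wild-type 10% serum, and for members at which a difference was found, and these last were chosen after their values were seen. Part of the partner list, and counts over the whole of it, are not reported here. Similar genes were the 5 with the highest Pearson r. All columns of both tables were assigned to a library.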

Additional observations from a re-analysis of the deposited data

How the results depend on the processing

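Of 123 recomputed values, 109 kept their direction and their side of the threshold or stayed within the spread between replicates. The wild-type value at ENST00000358295 was -2.14 when libraries were scaled by their peak totals, -2.70 with DESeq2 and -1.18 over input, and -2.36 to -2.26 with 1 library left out. In ΔLEO1 ChIP it was -1.20 to -1.07 with a library left out, in wild-type input -1.45 to -1.41, and in ΔLEO1 input -0.70 to 0.049, the last without ΔLEO1 10% input replicate A. The 1 TAFA1 window called between genotypes in 0.1% serum became 0 with peak totals, without the filter, with only the libraries compared, with all 8 ChIP libraries, over input and with DESeq2, and 0 to 0 with 1 library left out. The cause of these shifts was not tested. The 2 TAFA5 windows called in wild-type serum ChIP became 0 over input and with DESeq2 and were 2 under the other alternatives. The gene was chosen on this comparison, so no support is drawn from how often they were called. The counts of called members in ΔLEO1 serum ChIP, in 10% serum between genotypes and in both inputs were 0 throughout. In ΔLEO1 ChIP all 5 TAFA5 windows stayed lower under each alternative that could be fitted. Scaling by peak totals moved the median of all windows by 0.14 in wild type, 0.22 in ΔLEO1 and 0.28 between genotypes in 0.1% serum, and turned the split of wild-type calls from 116 higher and 315 lower to 299 and 171, that of ΔLEO1 from 20 and 81 to 91 and 21, and that between genotypes in 0.1% serum from 130 and 424 to 2152 and 145. DESeq2 called 0 windows in any ChIP comparison. With only the libraries compared, ENST00000358295 was under the filter in both ΔLEO1 serum comparisons and has no value.

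Whether the letters A and B pair the libraries could not be settled. Deviations of A from B correlated between ChIP groups by 0.00364, 0.0166 and 0.00372 over 159524 windows. Counting error in these deviations is large, so low correlations do not exclude a pairing. ChIP was not compared with input of the same letter. With a replicate block the value at ENST00000358295 was -1.17 in ΔLEO1 ChIP, -2.31 in wild-type ChIP, -1.44 in wild-type input and -0.22 in ΔLEO1 input, and no count of called members changed.

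Depth limits these windows, which held 3 to 41 ChIP reads at TAFA5, and with 1 ΔLEO1 library in 10% serum its spread cannot be seen.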
